A study of Danio rerio with 12 samples.

Results

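The oxidative phosphorylation subunit genes here are nuclear genes for subunits of the respiratory chain and ATP synthase, inhibitor genes of ATP synthase included. They were taken from the deposited count table by symbol in any case: symbols that begin with nduf but not ndufaf, the succinate dehydrogenase genes sdha to sdhd, uqcr, cox4 to cox8, and atp5. This rule found 96 genes of the 32520 in the table, under 91 distinct symbols, of which 38 belonged to complex I, 5 to complex II, 8 to complex III, 25 to complex IV and 20 to complex V (ATP synthase). Genes whose symbols begin with ndufa4 were placed in complex IV, since NDUFA4 is now known as one of its subunits. The rule used no measured value.

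Total RNA of zebrafish embryos was sequenced at 12 hours after fertilisation, in 4 groups of 3 libraries. These were H2A.ZmCherry embryos given 5AzadC, H2A.ZmCherry embryos given DMSO, wild-type (WT) embryos given 5AzadC and WT embryos given DMSO. 5AzadC is 5-aza-2'-deoxycytidine, a cytosine analogue that traps DNA methyltransferases, and it was given at 100 µM from soon after spawning, with 0.1% DMSO as its control, at about 50 eggs per well in 5 mL. The H2A.ZmCherry groups carry a fusion of the histone variant H2A.Z with a red fluorescent protein and are labelled as overexpressing H2A.Z. The sources used here do not say how the fusion was introduced or which promoter drives it. The growth protocol names AB/Tuebingen adults for all 4 groups. Nothing says that the replicates came from separate clutches or wells, so the p-values below measure only the spread between these libraries, which may be technical.

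Oxidative phosphorylation takes place on the inner mitochondrial membrane. Complexes I and II pass electrons from NADH and succinate to ubiquinone, complex III passes them on to cytochrome c, and complex IV hands them to oxygen. Complexes I, III and IV pump protons out of the matrix, and complex V lets them back in to make ATP. Most subunits are encoded in the nucleus and a small set in the mitochondrial genome, and early fish embryos rely on mitochondria laid down in the egg while they digest yolk.

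Library totals ran from 1142051 to 1904063 counts, and levels below are in CPM, the usual scaling of counts to a common library size, here TMM-adjusted. The median total over the 12 libraries was 293.5 counts for a tested complex I gene, the lowest, and 689 for complex II. It was 1494 for complex III, 758 for complex IV and 916.5 for complex V. Tested complex I genes ran from 92 to 1633 counts in all, so their precision differed. The totals were 1355337 to 1904063 counts with 5AzadC against 1182422 to 1660911 with DMSO in H2A.ZmCherry, and 1142051 to 1406110 against 1535951 to 1740059 in WT. Neither of the H2A.Z genes tested passed between the genotypes. The more abundant, h2az2b, was at 473 ± 32.1 CPM in H2A.ZmCherry and 394 ± 34.2 CPM in WT with DMSO (SD, n = 3 each; log2 fold change 0.27 ± 0.09, edgeR adjusted p 0.0746), and the sources used here do not say whether transgene reads count towards it.

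Summed levels of marker lists for parts of the embryo differed between the groups as well. The summed level of 20 epidermis markers, led by krt4, cyt1 and cyt1l, was 4581 to 5676 CPM with 5AzadC against 3864 to 4697 CPM with DMSO in H2A.ZmCherry, and 9231 to 11190 CPM against 5205 to 5881 CPM in WT. For 20 yolk syncytial layer markers it was 7443 to 9005 against 6342 to 7080 CPM in H2A.ZmCherry and 7032 to 7951 against 5905 to 6683 CPM in WT. For 10 muscle markers it was 303 to 347 against 327 to 403 CPM in H2A.ZmCherry and 319.5 to 335 against 545 to 553 CPM in WT, and for 8 neural plate markers 676 to 736 against 753 to 782 CPM and 396 to 525 against 724 to 814 CPM in the same order. For 6 hatching gland markers it was 458 to 637 against 405 to 468 CPM and 504 to 598 against 359 to 401 CPM, and for 4 notochord markers 156 to 188 against 96.9 to 118 CPM and 113 to 149 against 119.6 to 126 CPM. Sums of 5 blood markers and 14 markers of the oocyte stayed between 47.6 and 101 CPM in every library. Among these markers cldni, epcam and ponzr6 (epidermis) and FABP2 and mxtx2 (yolk syncytial layer), atp2a1l and CD63 (hatching gland), col8a1a (notochord), gata1a (blood) and BTG4 and ZAR1L (oocyte) were at 0 in every library, and no muscle or neural plate marker was. Single markers did not all follow the sums (edgeR adjusted p under 0.05). With 5AzadC 6 of 14 tested epidermis markers rose in H2A.ZmCherry and 11 in WT, and none fell. Of 14 yolk syncytial layer markers 6 rose and 1 fell in H2A.ZmCherry and 7 rose and 1 fell in WT. Of 8 neural plate markers 1 rose and 2 fell in H2A.ZmCherry and 6 fell in WT. Of 8 muscle markers 1 fell in H2A.ZmCherry and 5 in WT. Of 4 hatching gland markers 2 rose in H2A.ZmCherry and 3 in WT, and of 3 notochord markers 1 rose in H2A.ZmCherry. Over all genes 8.84% rose and 9.03% fell in H2A.ZmCherry, and 10.7% rose and 11.7% fell in WT. With DMSO 5 of 14 epidermis markers were higher and 2 lower in H2A.ZmCherry than in WT, though their sum was lower. Of all genes 2.73% were higher and 2.59% lower there. The part of these markers in the results below was not tested. In whole embryos, fewer cells of a type and less RNA per cell cannot be told apart.

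The summed level of all subunit genes was higher with 5AzadC in both genotypes, and in neither did the libraries overlap. It was 4098, 4647 and 4208 CPM in H2A.ZmCherry with 5AzadC, against 3286, 3038 and 2774 CPM with DMSO. In WT it was 4686, 4798 and 4599.7 CPM with 5AzadC, against 3019, 3051 and 3069 CPM with DMSO. As a share of all counts, without scaling, the genes held 0.427% ± 0.027 with 5AzadC and 0.302% ± 0.023 with DMSO in H2A.ZmCherry, and 0.446% ± 0.009 and 0.305% ± 0.001 in WT (SD, n = 3 each). The lowest library of all was H2A.ZmCherry DMSO replicate 3, at 0.276%.

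By complex, the summed levels of complexes I, III, IV and V did not overlap between 5AzadC and DMSO in either genotype. Complex V averaged 2305 ± 139 against 1656 ± 137 CPM in H2A.ZmCherry and 2656 ± 84.4 against 1644 ± 24.0 CPM in WT. Complex IV averaged 675 ± 59.3 against 379 ± 53.7 CPM in H2A.ZmCherry and 724 ± 42.3 against 399 ± 29.0 CPM in WT. Complex III averaged 469 ± 63.2 against 364 ± 16.3 CPM and 469 ± 10.8 against 316 ± 20.5 CPM, and complex I 759 ± 54.8 against 542 ± 42.8 CPM and 734 ± 69.8 against 582 ± 38.5 CPM, in the same order (SD, n = 3 in each group). Complex II was the exception, with 110.5 ± 18.3 against 92.1 ± 13.5 CPM in H2A.ZmCherry and 112 ± 9.30 against 104 ± 26.3 CPM in WT, and its libraries overlapped in both.

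**Figure D1:**
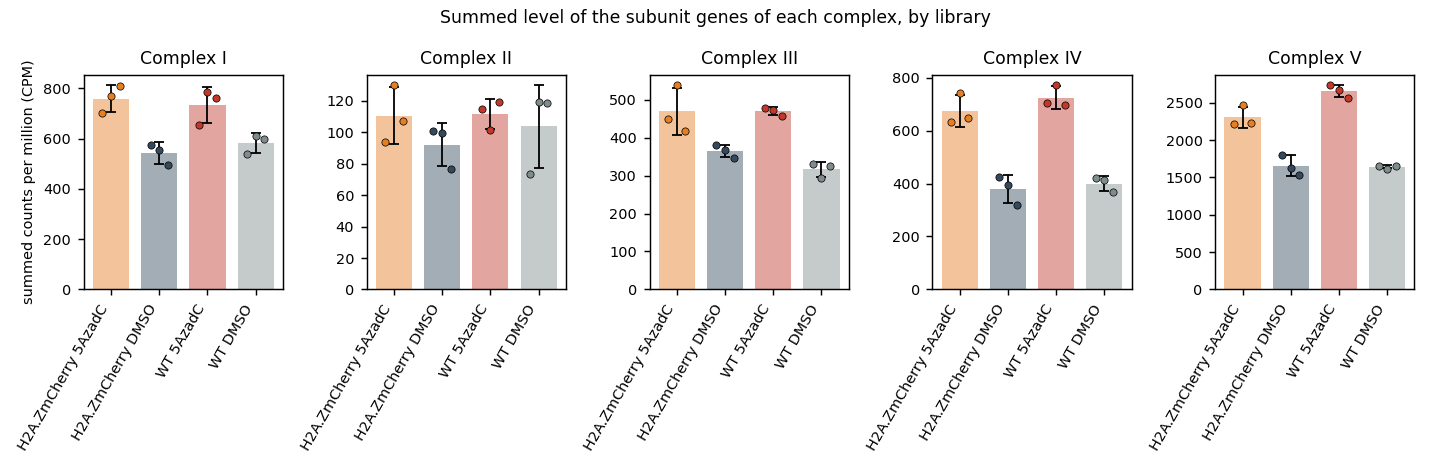
Summed CPM of the subunit genes of each complex (vertical axis, a scale of its own in each panel that starts at 0) in the 4 groups. Bars are means of 3 libraries, error bars are SD and dots are single libraries. The 5AzadC libraries lie above the DMSO libraries of the same genotype for complexes I, III, IV and V, and overlap with them for complex II.

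Of the 96 genes, 67 passed the filter on low counts and were tested. With 5AzadC in H2A.ZmCherry, 27 of the 67 rose and none fell (edgeR quasi-likelihood test, adjusted p under 0.05), where 8.84% of all 12293 tested genes rose and 9.03% fell. In WT 23 of 67 rose and none fell, where 10.7% of all genes rose and 11.7% fell. The median log2 fold change over the 67 genes was 0.58 in H2A.ZmCherry and 0.59 in WT, beside 0.02 and 0.01 over all genes. The fold change was above 0 for 62 of 67 genes in H2A.ZmCherry and for 60 in WT. The 5AzadC and DMSO libraries did not overlap for 38 genes in H2A.ZmCherry, where 33.2% of all genes did not overlap, and for 33 in WT, where the share of all genes was 35.2%. In the authors' deposited table for H2A.ZmCherry, 17 of the 65 subunit genes with an adjusted p rose and none fell, where 6.7% of all 11666 genes with an adjusted p rose and 7.71% fell. In the authors' deposited table for WT, 20 of 72 rose and none fell, where 6.88% of all 14534 genes rose and 7.75% fell.

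Single libraries moved the count in H2A.ZmCherry. It was 12 without H2A.ZmCherry 5AzadC replicate 2, 13 without H2A.ZmCherry DMSO replicate 3, and 17 with DESeq2. Among others, the calls of NDUFA9, ndufa11, COX4I1, COX5B, COX7A2, cox8a, ATP5F1A, ATP5F1C, ATP5F1D, atp5mc1, ATP5PD and ATP5PO were lost without either of these libraries. Without 5AzadC replicate 2 those of UQCRFS1 and NDUFA4 were lost too, and without DMSO replicate 3 that of NDUFA10, with adjusted p values of up to 0.247 and 0.346 over the lost calls. In WT the count was 20 to 24 when any 1 of the 12 libraries was left out and 20 with DESeq2. Under all 20 alternatives 10 of the 27 calls in H2A.ZmCherry were kept, those of cox5aa, cox6a1, cox6b2, cox7b, COX7C, ATP5F1B, ATP5MC3, atp5mc3b, atp5mf and ATP5MG. In WT 17 of 23 were kept, and the others were those of NDUFB2, NDUFB11, uqcrc2a, COX5B, cox7b and ATP5F1D.

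**Figure D2:**
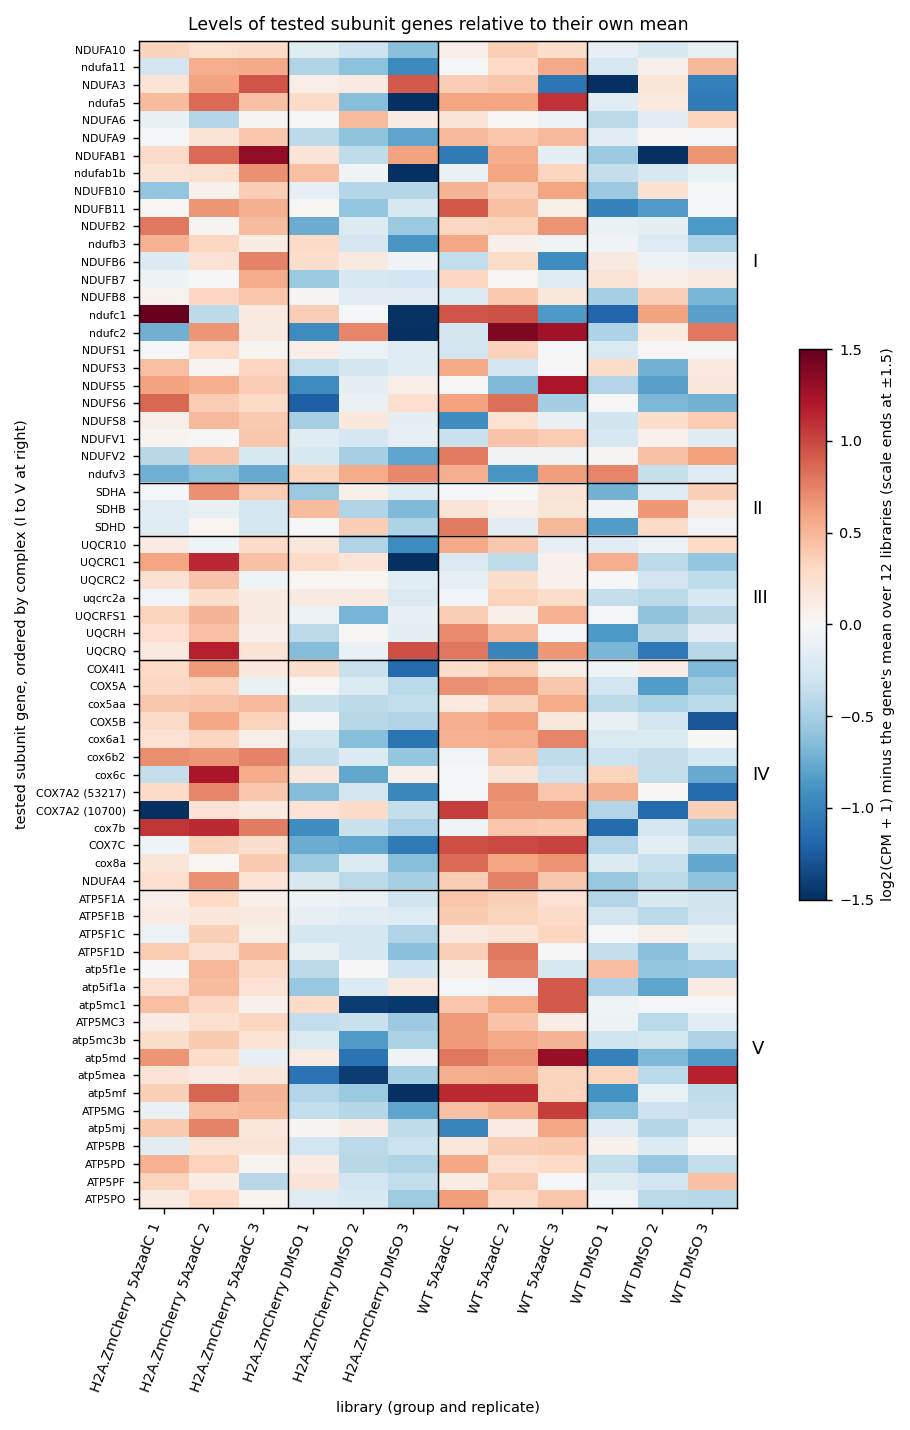
Each row is a tested subunit gene and each column a library, grouped as labelled. Colour is log2(CPM + 1) minus the mean of that gene over the 12 libraries, red above and blue below, with the scale ending at 1.5 in each direction. Rows run from complex I at the top to complex V at the bottom, and numbers in brackets are the last digits of the identifier where genes share a symbol. The columns of 5AzadC libraries are mostly red and those of DMSO libraries mostly blue. Over all 67 tested genes H2A.ZmCherry DMSO replicate 3 has the lowest median, -0.45. That median was taken on a log2 CPM scale with a prior of 2 counts, which is not the scale plotted.

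Complex I is the NADH dehydrogenase. Of its 26 tested genes 5 rose in H2A.ZmCherry (19.2%) and 2 in WT (7.69%), beside 8.84% and 10.7% of all genes. The median log2 fold changes were 0.58 in H2A.ZmCherry and 0.40 in WT. Among the accessory subunits, which surround the catalytic core, 4 of 20 rose in H2A.ZmCherry and 2 in WT, with medians of 0.64 and 0.54.

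The accessory subunit gene NDUFB2 (ENSDARG00000045490) was the complex I gene called in both genotypes. It had 51.2, 30.05 and 41.1 CPM with 5AzadC, against 17.0, 25.3 and 19.5 CPM with DMSO, in H2A.ZmCherry (log2 fold change 0.95 ± 0.28, adjusted p 0.00963). In WT NDUFB2 had 36.5, 37.0 and 47.1 CPM with 5AzadC, against 27.2, 26.5 and 15.6 CPM with DMSO (0.79 ± 0.28, adjusted p 0.0295). Its groups did not overlap in either genotype, but the call was lost with DESeq2 in WT (adjusted p 0.071) and without DMSO replicate 3 or 5AzadC replicate 3 of WT, and in H2A.ZmCherry without replicate 1 of either treatment. NDUFB11, another accessory subunit gene of the membrane arm, was called in WT alone, with 22.3, 15.6 and 12.0 CPM with 5AzadC against 5.06, 5.75 and 11.1 CPM with DMSO (1.204 ± 0.43, adjusted p 0.0347; 0.0784 with DESeq2). In H2A.ZmCherry it was at 0.76 ± 0.42 (adjusted p 0.221).

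In H2A.ZmCherry the accessory subunit genes NDUFA10, NDUFA9 and ndufa11 rose as well, and were at 0.65 ± 0.20 (adjusted p 0.0157), 0.83 ± 0.27 (adjusted p 0.0233) and 1.06 ± 0.37 (adjusted p 0.0352; 0.0781 with DESeq2). These 3 calls were lost without H2A.ZmCherry DMSO replicate 3, with adjusted p values from 0.102 to 0.138. In WT the 3 genes lay between 0.16 and 0.53 and none passed.

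Core subunits hold the flavin and the iron-sulphur clusters. NDUFS1, which carries iron-sulphur clusters and had the most counts of complex I, had 91.1, 114 and 94.8 CPM with 5AzadC against 98.9, 87.0 and 80.7 CPM with DMSO in H2A.ZmCherry (0.17 ± 0.16, adjusted p 0.531), and 75.2, 118 and 91.4 against 79.1, 93.2 and 92.5 CPM in WT (0.10 ± 0.17, adjusted p 0.731). Those groups overlapped in both genotypes. NDUFV1, the flavoprotein that takes electrons from NADH, was at 0.36 ± 0.18 in H2A.ZmCherry and 0.31 ± 0.18 in WT (adjusted p 0.177 and 0.248). Among the tested subunit genes the most negative fold change with 5AzadC was that of ndufv3, an accessory subunit gene next to the flavoprotein, at -1.42 ± 0.58 in H2A.ZmCherry (adjusted p 0.0758). Its levels were 3.76, 4.12 and 3.64 CPM with 5AzadC against 8.91, 10.6 and 11.9 CPM with DMSO, which rest on 129 counts over the 12 libraries.

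Complex II, succinate dehydrogenase, is also an enzyme of the citric acid cycle and is the only complex with no mitochondrially encoded subunit. None of its 3 tested genes was called in any comparison. SDHA, the flavoprotein that oxidises succinate, had 49.7, 81.3 and 65.6 CPM with 5AzadC against 34.0, 53.5 and 44.2 CPM with DMSO in H2A.ZmCherry (0.57 ± 0.22, adjusted p 0.0637). In WT it had 49.1, 50.2 and 58.2 against 30.4, 43.7 and 64.5 CPM (0.18 ± 0.23, adjusted p 0.63). The iron-sulphur subunit gene SDHB had 33.9, 35.4 and 31.8 against 53.5, 27.6 and 23.8 CPM in H2A.ZmCherry (-0.05 ± 0.26, adjusted p 0.933) and 43.9, 40.3 and 43.4 against 36.7, 60.4 and 41.7 CPM in WT (-0.13 ± 0.25, adjusted p 0.776).

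The 5AzadC and DMSO libraries of SDHA and SDHB overlapped in both genotypes. Without H2A.ZmCherry DMSO replicate 2 or 5AzadC replicate 1, SDHA passed in that genotype (adjusted p 0.0381 and 0.0294). The membrane anchor gene SDHD (ENSDARG00000030139) was at -0.18 ± 0.42 in H2A.ZmCherry and 0.59 ± 0.41 in WT (adjusted p 0.822 and 0.336). The errors of these 3 genes ran from 0.22 to 0.42, so a change as small as that of ATP5F1A in H2A.ZmCherry would not be detectable at this depth. A second gene named SDHD (ENSDARG00000055712) had 8 counts in all, and SDHC, for the other anchor, was at 0 in every library.

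Complex III, the cytochrome bc1 complex, had 1 of 7 tested genes called in H2A.ZmCherry (14.3%) and 3 in WT (42.9%), with medians of 0.43 and 0.53. All of these calls were rises, beside 8.84% and 10.7% of all genes. UQCRFS1 (ENSDARG00000007745), the Rieske iron-sulphur protein that swings electrons to cytochrome c1, rose in both. It had 111, 126 and 96.8 CPM with 5AzadC against 83.5, 54.1 and 80.7 CPM with DMSO in H2A.ZmCherry (0.63 ± 0.17, adjusted p 0.00583), and 114, 93.8 and 127 against 86.6, 57.5 and 65.8 CPM in WT (0.67 ± 0.17, adjusted p 0.0021). The groups did not overlap in either genotype, and the call in H2A.ZmCherry was lost without DMSO replicate 2 (adjusted p 0.111) or 5AzadC replicate 2 (0.0637) of that genotype.

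The hinge protein gene UQCRH, whose product helps cytochrome c dock, had 135, 115 and 81.3 CPM with 5AzadC against 44.9, 61.5 and 73.0 CPM with DMSO in WT (0.90 ± 0.18, adjusted p 7.34e-05). In H2A.ZmCherry its fold change was 0.43 ± 0.18 (adjusted p 0.0878). The core protein genes UQCRC2 and uqcrc2a share a symbol stem and may share reads. Of that pair uqcrc2a rose in WT, with 82.6, 108 and 103 against 66.4, 63.8 and 72.3 CPM (0.53 ± 0.17, adjusted p 0.015), and was at 0.10 ± 0.16 in H2A.ZmCherry (adjusted p 0.743). UQCRC2, which had the most counts of complex III, was at 0.24 ± 0.16 in H2A.ZmCherry and 0.30 ± 0.17 in WT (adjusted p 0.338 and 0.22).

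Complex IV is cytochrome c oxidase. Of its 13 tested genes 10 rose in H2A.ZmCherry (76.9%) and 8 in WT (61.5%), beside 8.84% and 10.7% of all genes, with medians of 0.82 and 0.90. All of these are small nuclear subunits that surround the catalytic core, and the core itself is mitochondrially encoded. COX7C (ENSDARG00000104537), a small membrane-spanning subunit, had 54.2, 71.3 and 67.7 CPM with 5AzadC against 33.2, 32.3 and 26.3 CPM with DMSO in H2A.ZmCherry (1.07 ± 0.21, adjusted p 5.45e-05). In WT COX7C had 111, 113 and 115 CPM with 5AzadC against 41.1, 50.6 and 43.7 CPM with DMSO (1.32 ± 0.19, adjusted p 4.19e-08). The WT 5AzadC libraries were the highest of all 12 for this gene.

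In both genotypes cox5aa, COX5B, cox6a1, cox7b, cox8a and NDUFA4 also rose. The matrix-side subunit gene cox5aa had 58.7, 60.1 and 62.5 against 34.8, 33.5 and 34.0 CPM in H2A.ZmCherry (0.83 ± 0.22, adjusted p 0.00402) and 49.1, 56.0 and 65.6 against 33.5, 31.6 and 33.2 CPM in WT (0.79 ± 0.22, adjusted p 0.00528). Its 5AzadC and DMSO libraries did not overlap in either genotype. NDUFA4, once counted in complex I, had 69.2, 93.7 and 67.2 against 49.4, 43.5 and 40.8 CPM in H2A.ZmCherry (0.78 ± 0.20, adjusted p 0.00254) and 75.9, 98.8 and 76.6 against 38.6, 43.7 and 37.8 CPM in WT (1.06 ± 0.20, adjusted p 2.15e-05). The subunit gene cox6a1 was at 0.85 ± 0.20 and 0.75 ± 0.19 in the same order (adjusted p 0.00109 and 0.00185), and COX5B (ENSDARG00000015978), the zinc-binding matrix subunit, at 0.70 ± 0.24 and 0.94 ± 0.24 (0.0293 and 0.00215).

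The call of COX5B in H2A.ZmCherry was lost with DESeq2 (adjusted p 0.0772), and that of cox8a was lost under 17 of the 20 alternatives, with adjusted p values of up to 0.191. The small subunit gene cox8a was at 0.68 ± 0.25 in H2A.ZmCherry (adjusted p 0.049) and 1.15 ± 0.24 in WT (0.000171). For cox7b the values were 42.1, 43.6 and 33.8 against 9.72, 15.3 and 13.6 CPM in H2A.ZmCherry (1.60 ± 0.32, adjusted p 8.24e-05) and 18.6, 26.3 and 25.9 against 8.22, 16.1 and 13.0 CPM in WT (0.90 ± 0.33, adjusted p 0.0397), and the WT call was lost with DESeq2 (0.0801).

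Single-genotype calls in complex IV were COX5A in WT and cox6b2, COX4I1 and a COX7A2 gene in H2A.ZmCherry. COX5A (ENSDARG00000099663) had 51.2, 51.9 and 38.0 against 41.3, 35.3 and 30.6 CPM in H2A.ZmCherry (0.39 ± 0.23, adjusted p 0.266) and 66.3, 64.2 and 54.5 against 33.5, 22.4 and 28.0 CPM in WT (1.14 ± 0.23, adjusted p 9.23e-05). The gene cox6b2 (ENSDARG00000037860), for a subunit that faces the intermembrane space and whose mammalian counterpart is a testis form, had 108, 106 and 112 CPM with 5AzadC against 51.9, 57.6 and 44.2 CPM with DMSO in H2A.ZmCherry (1.08 ± 0.19, adjusted p 6.32e-06). In WT it had 64.8, 88.1 and 50.8 against 53.1, 51.8 and 55.4 CPM (0.35 ± 0.19, adjusted p 0.201), with overlapping libraries.

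COX4I1, a subunit that joins complex IV early in assembly, was at 0.68 ± 0.25 in H2A.ZmCherry (adjusted p 0.0439; 0.12 with DESeq2), where its libraries overlapped, and 0.43 ± 0.25 in WT (0.237). Of the genes named COX7A2, ENSDARG00000053217 had 19.6, 27.1 and 21.3 against 9.72, 12.9 and 7.65 CPM in H2A.ZmCherry (1.14 ± 0.38, adjusted p 0.0247; 0.0682 with DESeq2) and was at 0.45 ± 0.36 in WT (0.429). The other, ENSDARG00000110700, was at -0.29 ± 0.49 in H2A.ZmCherry (0.746) and 1.199 ± 0.48 in WT (0.061). Reads that fit both genes may be split between them, so their single values are uncertain. COX5A and cox5aa are uncertain in the same way. No interaction test of these genes passed with every library in the fit, so a difference between the genotypes in the response to the drug is not shown. Levels in the genotypes are compared directly further below.

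**Figure D3:**
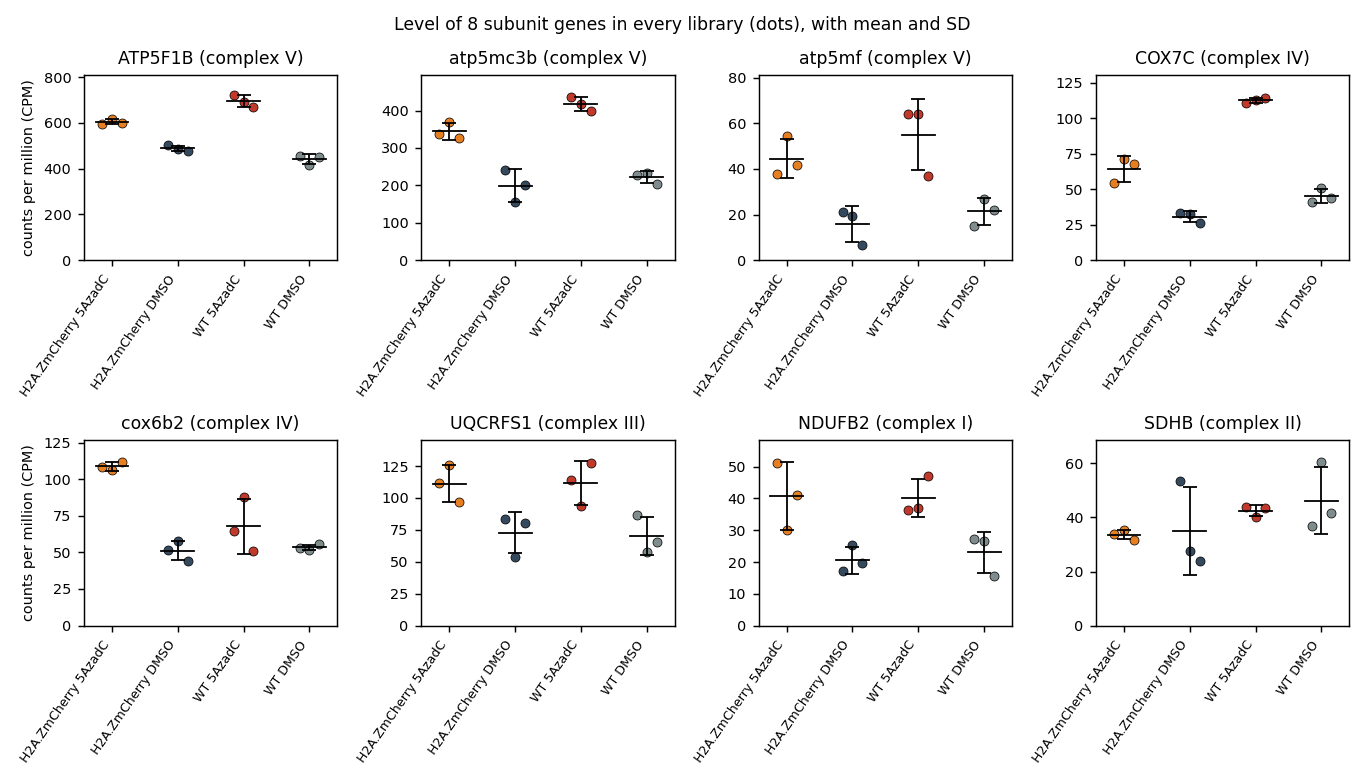
CPM (vertical axis, from 0) of 8 subunit genes in every library, with the group mean as a long line and SD as error bars. The 5AzadC libraries lie above the DMSO libraries of the same genotype for each gene but SDHB, in both genotypes, and cox6b2, in WT.

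Complex V, ATP synthase, held most of the counts of the subunit genes. Of its 18 tested genes 11 rose in H2A.ZmCherry (61.1%) and 10 in WT (55.6%), beside 8.84% and 10.7% of all genes. The medians were 0.54 and 0.67. ATP5F1B (ENSDARG00000070083), the catalytic beta subunit and the subunit gene with the most counts, had 596, 617 and 601 CPM with 5AzadC against 502, 487 and 478 CPM with DMSO in H2A.ZmCherry (0.31 ± 0.09, adjusted p 0.00665). In WT it had 722, 691 and 669 CPM with 5AzadC against 454, 415 and 453 CPM with DMSO (0.66 ± 0.09, adjusted p 3.43e-09). Its 5AzadC and DMSO libraries did not overlap in either genotype. ATP5F1A, the alpha subunit, had 508, 594 and 507 against 455, 450.3 and 390.1 CPM in H2A.ZmCherry (0.31 ± 0.09, adjusted p 0.0115) and 641, 617 and 558 against 353, 409.5 and 391 CPM in WT (0.65 ± 0.09, adjusted p 3.13e-08).

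The call of ATP5F1A in H2A.ZmCherry was lost without DMSO replicate 3 (adjusted p 0.12) or 5AzadC replicate 2 (0.135) of that genotype. In the central stalk, which turns inside the head, ATP5F1D was at 0.70 ± 0.26 in H2A.ZmCherry (adjusted p 0.0455; 0.0872 with DESeq2) and 0.85 ± 0.26 in WT (0.0108). The gamma subunit gene ATP5F1C was at 0.46 ± 0.16 (0.0337; 0.0618 with DESeq2) and 0.23 ± 0.16 (0.326), so it was called in H2A.ZmCherry alone. The epsilon subunit gene atp5f1e passed in neither, at 0.50 ± 0.28 and 0.42 ± 0.28.

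The c-ring is the rotor in the membrane that protons turn, and all 3 of its tested genes rose in H2A.ZmCherry and 2 in WT. The gene atp5mc3b (ENSDARG00000009447) had 338, 370.0 and 326 CPM with 5AzadC against 241, 155 and 201 CPM with DMSO in H2A.ZmCherry (0.80 ± 0.11, adjusted p 3.42e-08). In WT it had 437, 417 and 399.9 against 228, 234 and 203 CPM (0.91 ± 0.11, adjusted p 1.54e-10), the smallest adjusted p among the tested subunit genes in the drug comparisons. ATP5MC3, which shares its stem, was at 0.65 ± 0.16 and 0.63 ± 0.16 in the same order (0.00171 and 0.00133).

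For atp5mc1 the levels were 56.4, 51.3 and 43.2 against 50.2, 14.7 and 14.4 CPM in H2A.ZmCherry (0.95 ± 0.28, adjusted p 0.0148) and 55.1, 60.9 and 78.5 against 39.2, 40.3 and 40.4 CPM in WT (0.69 ± 0.26, adjusted p 0.0544). DMSO replicate 1 of H2A.ZmCherry stood far above the other DMSO libraries of that genotype and among its 5AzadC libraries. The call was lost without DMSO replicate 2 or 3 or 5AzadC replicate 1 or 2 of that genotype, with adjusted p values of up to 0.146. With only the compared groups in the fit that call was lost too (0.0614), and atp5mc1 passed in WT (0.0155). In WT the gene also passed without the filter on low counts (0.0266) and under other alternatives, but not in the authors' DESeq2 fit (0.145). In mammals the c-ring genes encode the same mature protein, and the sources used here do not say how reads common to such genes were counted.

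The peripheral stalk holds the head still while the rotor turns, and ATP5PD and ATP5PO rose among its 4 genes in both genotypes. ATP5PO, the cap of the stalk on the head, had 102, 115 and 96.3 against 81.0, 78.8 and 63.7 CPM in H2A.ZmCherry (0.48 ± 0.16, adjusted p 0.0273; 0.0564 with DESeq2) and 144, 113 and 125 against 90.4, 70.2 and 69.1 CPM in WT (0.73 ± 0.16, adjusted p 0.000258). ATP5PD was at 0.54 ± 0.19 in H2A.ZmCherry (0.0375; 0.0782 with DESeq2), with overlapping libraries, and 0.83 ± 0.19 in WT (0.000672). ATP5PB and ATP5PF were at 0.44 and 0.17 in H2A.ZmCherry and at 0.36 and 0.15 in WT, and neither passed.

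Small membrane subunits include several that join ATP synthase into rows of dimers. The gene atp5mf had 37.6, 54.2 and 41.7 CPM with 5AzadC against 21.1, 19.4 and 6.80 CPM with DMSO in H2A.ZmCherry (1.47 ± 0.29, adjusted p 0.000108) and 64.0, 64.2 and 36.9 against 15.2, 27.0 and 22.2 CPM in WT (1.36 ± 0.28, adjusted p 8.9e-05). ATP5MG had 52.7, 78.4 and 80.7 against 43.8, 41.7 and 32.3 CPM in H2A.ZmCherry (0.85 ± 0.21, adjusted p 0.00181) and 77.4, 82.3 and 117 against 36.7, 45.4 and 44.3 CPM in WT (1.12 ± 0.20, adjusted p 1.11e-05). Both genes had groups that did not overlap in either genotype.

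Among the tested subunit genes the largest fold change with 5AzadC in WT was that of atp5md, with 22.3, 20.6 and 32.3 CPM with 5AzadC against 5.69, 7.48 and 6.52 CPM with DMSO (1.91 ± 0.41, adjusted p 0.00021). In H2A.ZmCherry atp5md had 20.3, 15.3 and 11.5 against 13.8, 5.29 and 11.9 CPM (0.62 ± 0.41, adjusted p 0.314), with overlapping libraries. The inhibitor gene atp5if1a, whose protein stops the enzyme from running backwards, was at 0.54 ± 0.39 and 0.73 ± 0.40 and passed in neither. Of the pair atp5mea and atp5meb, atp5mea was tested, at 1.39 ± 0.64 in H2A.ZmCherry and -0.01 ± 0.54 in WT with no call, and atp5meb had 11 counts in all.

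**Figure D4:**
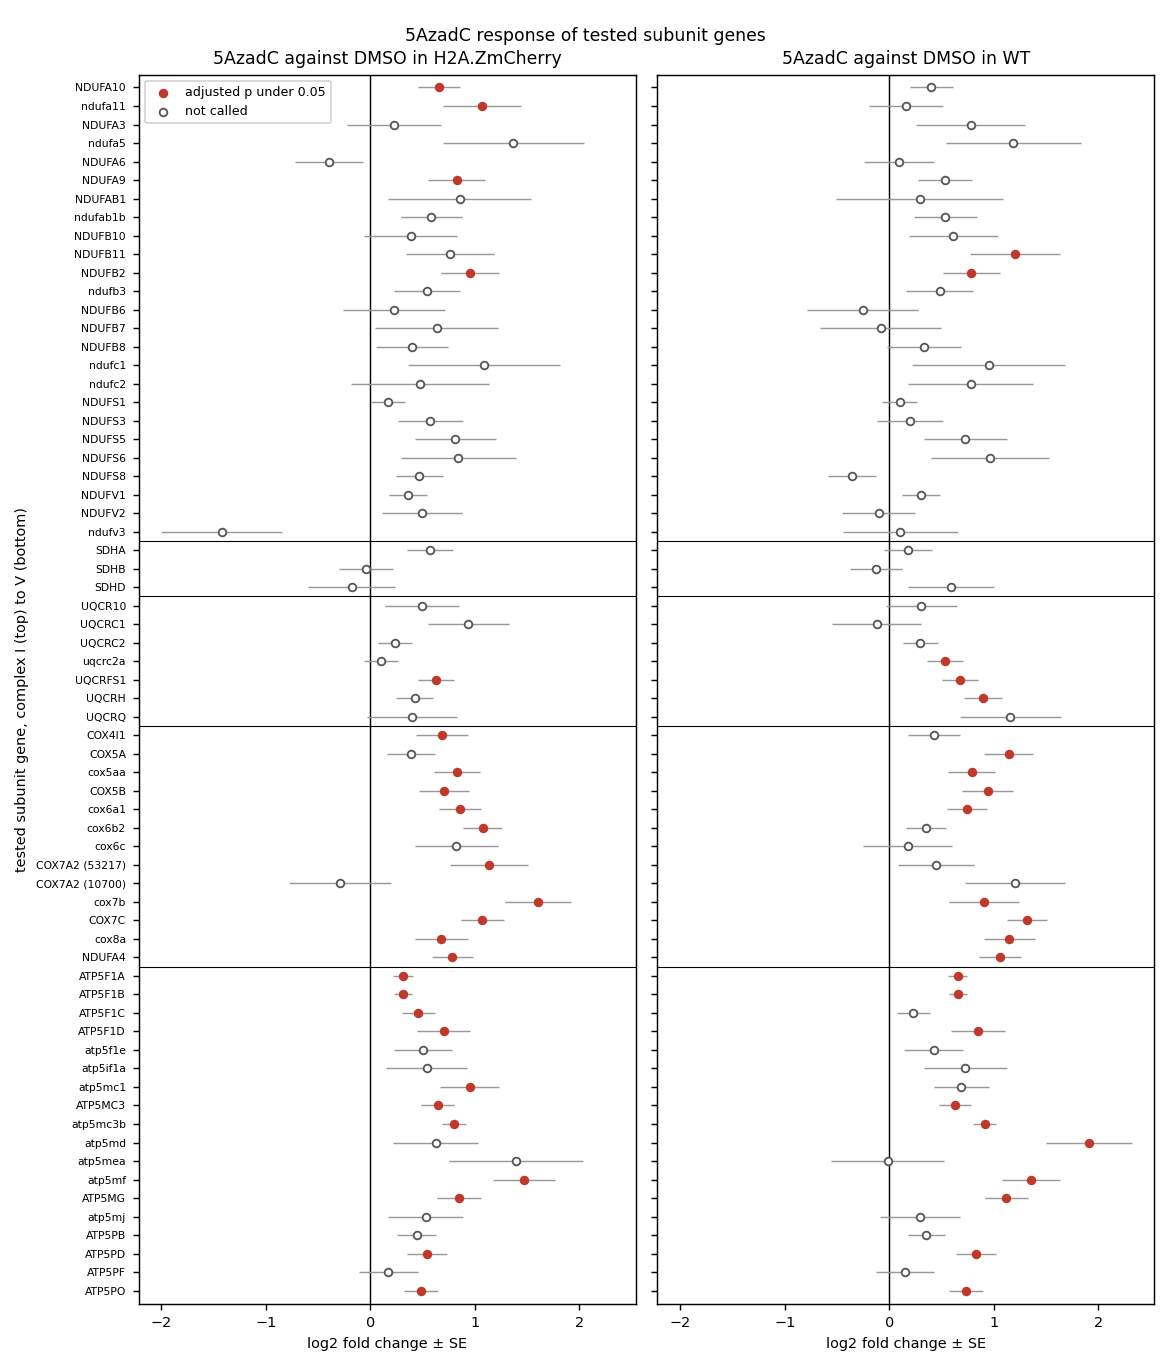
Log2 fold change of 5AzadC against DMSO (horizontal axis, bars are 1 SE) of tested subunit genes in H2A.ZmCherry (left) and WT (right), ordered from complex I at the top to complex V at the bottom. Filled red points passed at an adjusted p under 0.05 and open points did not. Every filled point lies to the right of 0, and most of them are in complexes IV and V.

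Set side by side, 18 of the 67 genes rose in both genotypes, 9 in H2A.ZmCherry alone and 5 in WT alone. None was called in opposite directions. Of all 12293 genes, 547 rose in both, 614 fell in both and 33 were called in opposite directions. Another 1003 were called in H2A.ZmCherry alone and 1551 in WT alone, in either direction. These drug comparisons share no library between the genotypes. The fold changes had the same sign for 57 of 67 genes (85.1%), beside 8181 of all 12293 genes (66.6%). The test of the difference itself, the response in H2A.ZmCherry minus that in WT, called none of the 67 genes with edgeR, where 3.75% of all genes were called (1.9% higher and 1.85% lower). At an unadjusted p under 0.05 there were 7 of them (10.4%), beside 16.1% of all genes, and DESeq2 called 1, ATP5F1B.

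For ATP5F1B the difference was -0.35 ± 0.12 on the log2 scale (edgeR adjusted p 0.0974, DESeq2 adjusted p 0.0221). ATP5F1A was close to it, at -0.34 ± 0.13 (edgeR adjusted p 0.14). In the other direction were NDUFS8, an iron-sulphur subunit gene, at 0.82 ± 0.32 (0.154), and cox6b2, at 0.73 ± 0.27 (0.12). Without WT 5AzadC replicate 2 both of these passed (adjusted p 0.0434 and 0.0343).

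Between the genotypes few subunit genes were called. By summed level with 5AzadC, complex V was at 2222 to 2465 CPM in H2A.ZmCherry, below 2567 to 2735 CPM in WT. Of its 18 tested genes 2 had a fold change above 0, beside 6219 of all 12293 genes, with a median of -0.19. Complex III with DMSO was at 347 to 379 CPM in H2A.ZmCherry, above 293 to 330 CPM in WT. The other sums by complex overlapped between the genotypes. With 5AzadC, 1 gene was higher and 1 lower in H2A.ZmCherry than in WT, where 8.0% of all genes were higher and 7.61% lower, and the median over the 67 genes was -0.06. The higher gene was cox6b2, at 0.68 ± 0.18 (adjusted p 0.00544), and the lower gene was COX7C, at -0.80 ± 0.18 (adjusted p 0.00086). The libraries of both genes, given above, did not overlap between the genotypes. The call of cox6b2 was lost without WT 5AzadC replicate 3 (adjusted p 0.0804), and that of COX7C was kept under all 20 alternatives. For 14 of the 67 genes the genotypes did not overlap, where 30.4% of all genes did not overlap.

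With DMSO no subunit gene passed between the genotypes with edgeR, where 5.32% of all genes did (2.73% higher and 2.59% lower in H2A.ZmCherry), and the median was -0.03. At an unadjusted p under 0.05 there were 9 genes (13.4%), beside 17.1% of all genes, and DESeq2 called none. The smallest adjusted p was that of atp5mea, with 2.43, 1.76 and 4.25 CPM in H2A.ZmCherry against 8.22, 4.60 and 15.6 CPM in WT (-1.76 ± 0.63, adjusted p 0.0908). COX7C had 33.2, 32.3 and 26.3 against 41.1, 50.6 and 43.7 CPM (-0.55 ± 0.21, adjusted p 0.125), in the same direction as with 5AzadC. For 11 genes the libraries did not overlap, where the share of all genes was 21.5%. The comparisons at 5AzadC and at DMSO share no library with each other, but each shares its libraries with the drug comparisons.

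More calls fell among the genes with more counts. By complex, complex I, with the lowest median total of 293.5 counts, had 5 of 26 genes called in H2A.ZmCherry and 2 in WT. Complex II, at 689 counts, had none of 3 called in either genotype. Complex IV, at 758 counts, had 10 of 13 and 8, and complex V, at 916.5 counts, 11 of 18 and 10. Complex III, at 1494 counts, had 1 of 7 genes called in H2A.ZmCherry and 3 in WT. The part of counts in the calls was not tested. Split at the median total, the 33 genes with 581 to 9673 counts had 22 rises in H2A.ZmCherry and 19 in WT, and the 34 genes with 92 to 548 counts had 5 and 4. Over all genes within those ranges of counts, 14.5% and 16.2% rose in the upper range and 4.14% and 5.75% in the lower, in the same order of genotypes. The median log2 fold changes were closer together than the calls, at 0.63 and 0.66 for the better counted genes and 0.58 and 0.51 for the others. The median errors were 0.20 and 0.19 for the better counted genes and 0.40 and 0.41 for the others.

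Not every subunit gene could be tested. At 0 in every library were 11 genes, NDUFA12, NDUFB4, NDUFB5, NDUFB9 and NDUFS4 of complex I, SDHC of complex II, cox4i1l, a COX5B gene (ENSDARG00000113254), COX7A2L and ndufa4b of complex IV, and atp5if1b of complex V. A count of 0 allows up to 3 counts over the 12 libraries, which covers counting error only. The 13 protein genes of the mitochondrial genome were listed at 0 in every library as well, so the mitochondrially encoded subunits are not analysed here, and a listed 0 is not read as absence of the transcript.

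A further 18 genes had counts but did not pass the filter. In complex I these were NDUFA2 with 70 counts in all, ndufa9b with 60, NDUFB1 with 49, ndufa7 with 40, NDUFS7 with 10, NDUFA8 with 3 and NDUFA1 with 2. In complexes II and III they were an SDHD gene with 8 and UQCRB with 70. In complex IV they were COX4I2, known in mammals as the lung and low-oxygen form of subunit 4, with 62, cox6b1 with 23, a COX6A1 gene (ENSDARG00000054588) with 19, cox8b with 11, a COX5B gene (ENSDARG00000068738) with 10, cox7a1 with 10, NDUFA4L2 with 5 and ndufa4l2b with 3, and in complex V atp5meb with 11. The heart and muscle form in mammals among these, cox7a1, had 0 and 3 counts in H2A.ZmCherry with 5AzadC and with DMSO, and 3 and 4 in WT. For cox6b1 the counts were 15 and 1 in H2A.ZmCherry and 7 and 0 in WT in the same order.

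Where several genes carry a name, 1 of them mostly held the counts. COX5B had 763 counts under ENSDARG00000015978 and 10 and 0 under the others, SDHD had 221 and 8, cox6a1 had 1115 beside 19 for COX6A1, and NDUFA9 had 548 beside 60 for ndufa9b. The pairs with more even counts were UQCRC2 and uqcrc2a (1612 and 1504), COX5A and cox5aa (737 and 804) and the COX7A2 genes (307 and 174). NDUFAB1 and ndufab1b, for the acyl carrier protein, had 92 and 544 counts. Their fold changes were 0.85 ± 0.68 and 0.58 ± 0.29 in H2A.ZmCherry and 0.29 ± 0.80 and 0.54 ± 0.30 in WT, none of which passed.

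Genes around the respiratory chain gave a mixed picture. Cytochrome c, the soluble carrier between complexes III and IV, rose in both genotypes through cycsb, with 94.4 ± 10.2 against 61.5 ± 17.8 CPM in H2A.ZmCherry (0.61 ± 0.18, adjusted p 0.0118) and 99.1 ± 5.75 against 52.2 ± 6.50 CPM in WT (0.92 ± 0.18, adjusted p 6.01e-05; SD, n = 3 in each group). Cytochrome c1, the complex III subunit gene CYC1 that the naming rule leaves out, rose in H2A.ZmCherry by 0.53 ± 0.17 (adjusted p 0.0198) and was at 0.28 ± 0.18 in WT (0.273). Of 12 tested assembly factor genes of complex I, 2 of complex III and 3 of complex V none was called in either genotype, and none of the 4 complex II factors in the table passed the filter.

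Among 9 tested complex IV assembly genes none rose and 1 fell in each genotype (11.1%). Of all genes 9.03% fell in H2A.ZmCherry and 11.7% in WT. It was LRPPRC, whose protein stabilises mitochondrial messenger RNA, with 197 ± 13.1 against 255 ± 27.4 CPM in H2A.ZmCherry (-0.38 ± 0.11, adjusted p 0.0134) and 150.4 ± 18.4 against 236 ± 13.2 CPM in WT (-0.65 ± 0.12, adjusted p 1.1e-05). Of 13 genes of mitochondrial biogenesis and mitochondrial DNA none rose, 1 fell in H2A.ZmCherry (7.69%) and 2 fell in WT (15.4%). These shares were near those of all genes that fell, 9.03% and 11.7%. PPARGC1A, a coactivator that drives genes of oxidative phosphorylation, fell in both, with 13.1 ± 2.67 against 27.9 ± 5.62 CPM in H2A.ZmCherry (-1.06 ± 0.32, adjusted p 0.0126) and 15.5 ± 2.05 against 30.2 ± 5.11 CPM in WT (-0.95 ± 0.32, adjusted p 0.0228). Its relative pprc1 fell in WT (log2 fold change -0.36 ± 0.12, adjusted p 0.0182).

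In the list of carriers, pores and antioxidants of mitochondria 4 of 11 genes rose in H2A.ZmCherry (36.4%) and 6 in WT (54.5%), and none fell. Of all genes 8.84% and 10.7% rose in the same order. SLC25A5, the ADP and ATP exchanger that feeds ATP synthase, had 3128 ± 105 against 2436 ± 224 CPM in H2A.ZmCherry (0.36 ± 0.07, adjusted p 9.38e-05) and 3145 ± 138 against 1829 ± 76.1 CPM in WT (0.78 ± 0.07, adjusted p 9.42e-15). VDAC2, a pore of the outer membrane, was at 0.59 ± 0.10 and 0.76 ± 0.10 in the same order (adjusted p 9.24e-06 and 6.1e-09). In this list the genotypes differed in response for 2 of 11 genes (18.2%), beside 3.75% of all genes. SLC25A5 had an interaction of -0.42 ± 0.10 (adjusted p 0.00692) and the phosphate carrier gene SLC25A3 one of -0.55 ± 0.13 (0.0044).

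The levels of SLC25A3 (ENSDARG00000025566) were 636 ± 25.4 against 623 ± 87.7 CPM in H2A.ZmCherry and 765 ± 25.4 against 511 ± 51.6 CPM in WT. In the citric acid cycle 3 of 17 genes rose (17.6%) and 1 fell (5.88%) in H2A.ZmCherry, and 5 rose (29.4%) and none fell in WT. Over all genes 8.84% rose and 9.03% fell in H2A.ZmCherry, and 10.7% rose and 11.7% fell in WT. IDH3G, an isocitrate dehydrogenase subunit, rose in both (0.93 ± 0.24 and 0.72 ± 0.23, adjusted p 0.00369 and 0.0181), DLAT, of pyruvate dehydrogenase, rose in both (0.66 ± 0.16 and 0.45 ± 0.16, 0.00144 and 0.0323), SUCLG1 of succinyl-CoA ligase rose in WT (0.63 ± 0.22, 0.032), and ogdha, of oxoglutarate dehydrogenase, fell in H2A.ZmCherry (-0.54 ± 0.15, 0.0056). In glycolysis 2 of 14 genes rose in H2A.ZmCherry (14.3%) and 5 in WT (35.7%), and none fell, beside 8.84% and 10.7% of all genes that rose. The aldolase gene ALDOA was at 0.41 ± 0.10 and 0.55 ± 0.10 (adjusted p 0.00205 and 2.42e-05), its relative ALDOC at 1.47 ± 0.37 in H2A.ZmCherry (0.0021) and the enolase gene ENO3 at 1.23 ± 0.28 in WT (0.000391).

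Between the genotypes with 5AzadC, the carrier list had 5 of 11 genes lower in H2A.ZmCherry (45.5%), where 7.61% of all genes were lower. The same comparison called 3 of 17 citric acid cycle genes (17.6%), 1 of 14 glycolysis genes (7.14%) and 1 of 9 complex IV assembly genes (11.1%), beside 15.6% of all genes. With DMSO the calls were 3 of 11 carrier list genes (27.3%), 2 of 14 glycolysis genes (14.3%) and 1 of 17 citric acid cycle genes (5.88%), beside 5.32% of all genes.

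With 5AzadC 2 citric acid cycle genes were higher and 1 lower in H2A.ZmCherry, led by IDH2 (0.58 ± 0.16, adjusted p 0.00667) and CS (0.43 ± 0.13, 0.0185), LRPPRC was higher (0.39 ± 0.12, 0.017), and UCP2 of the carrier list was lower (-0.48 ± 0.13, 0.00686). With DMSO IDH2 (0.52 ± 0.16, 0.0429), ALDOA (0.40 ± 0.10, 0.00914) and SLC25A5 (0.41 ± 0.07, 2.2e-05) were higher. PRDX3, a mitochondrial peroxidase gene, was lower in H2A.ZmCherry with both treatments (-2.24 ± 0.42 with 5AzadC and -2.66 ± 0.52 with DMSO, adjusted p 5.56e-05 and 0.000182), and HK1, a hexokinase gene, was higher with both (1.85 ± 0.51 and 2.60 ± 0.50, 0.0063 and 0.000164).

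Other sets of housekeeping complexes, whose genes were taken by symbol, had their own values in the same fits. The sets themselves were picked with earlier results of these data known. The share of genes that rose was 8.84% in H2A.ZmCherry and 10.7% in WT over all genes, and 40.3% and 34.3% over the subunit genes. Of 71 tested genes for cytosolic ribosomal proteins 55 rose in H2A.ZmCherry (77.5%) and 58 in WT (81.7%), none fell, and the medians were 0.37 and 0.56. Of 35 proteasome subunit genes 17 rose (48.6%) and 1 fell in H2A.ZmCherry and 16 rose (45.7%) and none fell in WT, with medians of 0.58 and 0.48. Of 49 genes for mitochondrial ribosomal proteins 2 rose and none fell in H2A.ZmCherry and 2 rose and 1 fell in WT, with medians of 0.34 and 0.17. The share that rose was 4.08% in each genotype, below that of all genes. Their fold change was above 0 for 39 of 49 genes in H2A.ZmCherry and for 33 in WT. Over all 12293 genes it was above 0 for 6304 and 6189 in the same order. No test of a difference between these lists was made.

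**Figure D5:**
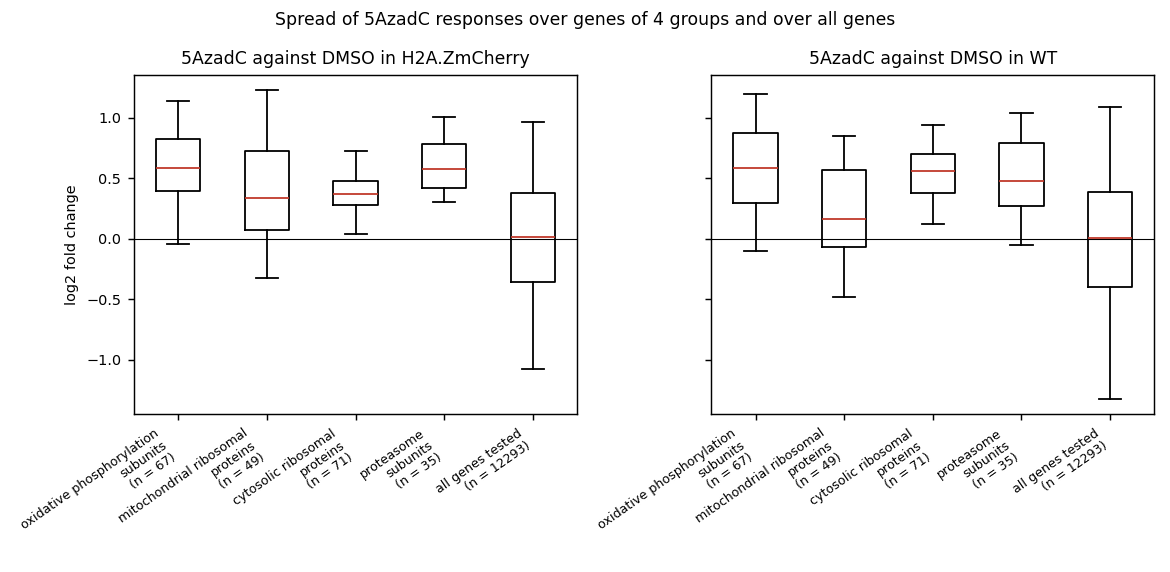
Log2 fold change of 5AzadC against DMSO over the tested genes of 4 lists and over all tested genes in H2A.ZmCherry (left) and WT (right). Boxes span the quartiles, red lines are medians and whiskers reach the 5th and 95th percentiles over genes, which are not replicates. The medians of the subunit genes are 0.58 and 0.59, above those over all genes of 0.02 and 0.01.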

How the data were processed

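The authors deposited raw read counts per Ensembl gene for the 12 libraries. Per the submitters' processing notes the tools were STAR, featureCounts 2.0.3 (Subread), DESeq2 1.22.2 and deepTools with genome build GRCz11. The annotation release, strand setting and treatment of reads that map to several genes were not stated in these sources. Paralogs may therefore share reads, and antisense overlap was not resolved. The authors' deposited DESeq2 tables give a mean normalised count signal, a log2 fold change with its error, a Wald score, and a p-value with its adjusted value. From them only the adjusted p-values and signs were used. Fold changes there had the same sign as in the fit below for all 67 tested genes in both genotypes.

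The deposited counts went into edgeR 4.0.16 (R 4.3.3): filterByExpr by group left 12293 genes (98.5% of counts), TMM scaling, a robust quasi-likelihood fit of all 12 libraries with 1 coefficient per group, and Benjamini-Hochberg adjustment over the 12293 genes, with calls at an adjusted p under 0.05. The common biological coefficient of variation was 14.8%. Errors after ± beside log2 fold changes are standard errors derived from the F statistic and are approximate. The script was tested on simulated data. Genes named with values were the called subunit genes, all of complex II, the untested genes, the gene with most counts in each complex, pairs that share a stem and, in each pathway list and comparison, the 2 called genes with the smallest adjusted p. NDUFV1, NDUFS8, NDUFA3, ndufv3, atp5f1e, atp5if1a, ATP5PB, ATP5PF, h2az2b, ogdha and the levels given for SLC25A3 were chosen after their values were seen. Results of 1 item are not reported here, and counts include it. The members and lists were chosen with earlier results of these data known. Alternatives were DESeq2 1.42.0, other scalings and filters, the replicate block, narrower fits and leaving out each library. Counts of 3 libraries per group limit the precision, and 1 count equalled 0.576 to 0.923 CPM in WT libraries and 0.521 to 0.850 CPM in H2A.ZmCherry libraries.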

Additional observations from a re-analysis of the deposited data

How the results depend on the processing

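Over 20 alternatives, 12 of which leave out 1 library, no call of a subunit gene reversed. Of 52 calls 28 were kept under every alternative: 10 of 27 for the drug in H2A.ZmCherry, 17 of 23 for the drug in WT and 1 of 2 between the genotypes with 5AzadC. DESeq2 lost 13 of them.

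For the drug in H2A.ZmCherry the count was 17 with DESeq2 and 12 to 27 when 1 library was left out, with 12 without H2A.ZmCherry 5AzadC replicate 2 and 13 without H2A.ZmCherry DMSO replicate 3. All genes called there numbered 1389 to 2290 with 1 library left out, against 2197. The median over the subunit genes stayed between 0.54 and 0.64 in both genotypes under those omissions. Between the genotypes with 5AzadC the count of calls was 1 to 3 with 1 library left out and 4 with only the compared groups in the fit, which added atp5mc3b and cox7b, and the median ran from -0.17 (without WT 5AzadC replicate 3) to -0.054. With DMSO it was 0 to 1, with NDUFA3 called without WT DMSO replicate 2 (adjusted p 0.0418) and atp5mc1 without H2A.ZmCherry DMSO replicate 1 (-1.44, adjusted p 0.000484), and the median ran from -0.087 to 0.037. For the interaction the count was 1 with DESeq2 and 0 to 2 with 1 library left out, and its median ran from -0.048 to 0.087 around 0.06. The cause of these changes was not tested.

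No pairing of the libraries by replicate number was seen: over 18 pairs with the same number the correlations of deviations ran from -0.026 to 0.024, and 4 of 12 libraries correlated best with their own number. These correlations weigh well and poorly counted genes alike, so a weak pairing could be missed. With the replicate number as a block, 26 subunit genes were called for the drug in H2A.ZmCherry, 24 in WT, 2 between the genotypes with 5AzadC and 0 in the other comparisons. Scalings moved the median of all genes by less than 0.1. Genes with 92 to 548 counts had median errors of 0.40 and 0.41, which limits what could be called among them.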
